A study of Mus musculus with 8 samples.

Results

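The genes described here encode 10 proteins that neutrophils store in granules, of 33696 genes counted in the series. They were matched by gene symbol, and all 10 were found once each. By the granule that holds the protein and the stage at which the gene is read, they fall into 3 groups. The azurophil or primary granule genes are Elane (neutrophil elastase), Prtn3 (proteinase 3), Ctsg (cathepsin G) and Mpo (myeloperoxidase, which makes hypochlorous acid from hydrogen peroxide). The specific or secondary granule genes are Ltf (lactoferrin, which binds iron), Camp (the cathelicidin that gives the antimicrobial peptide CRAMP), Ngp (neutrophilic granule protein, of the cystatin family) and Lcn2 (lipocalin 2, which captures bacterial siderophores). The late genes are Mmp8 (neutrophil collagenase) and Retnlg (resistin-like gamma, which marks late neutrophils in the mouse).

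Granules are filled in waves as a neutrophil matures in the bone marrow. Azurophil genes are read in dividing promyelocytes and are then shut off, specific granule genes follow in myelocytes and metamyelocytes, and gelatinase granule genes come last, so that a circulating neutrophil carries much granule protein but little of the early mRNA. The transcription factor C/EBPε drives the specific granule wave, and PU.1 and C/EBPα act in the azurophil wave, part of which monocyte precursors share.

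The cells were leukocytes from liver metastases, taken 30 days after Venus-AKTPM/LOH colorectal cancer cells were injected into the spleen. The knockout (KO) mice were Vav1CreTet2KO, in which a Cre recombinase driven by Vav1, a promoter active across blood lineages, deletes Tet2, a dioxygenase that oxidises methylated cytosine. The control mice were Tet2fl/fl, with floxed Tet2. Ages, and whether the controls carried a Cre, are not given in the sources used here. Each group had 2 mice, called KO mice 1 and 2 and control mice 1 and 2 below, and values within a group follow the mouse numbers. Tumours were digested with collagenase and DNase, leukocytes were enriched on a density gradient, and live CD45+ cells were sorted, so shares of cells are shares of what passed these steps.

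Tet2 itself was at 37.8 and 32.3 UMIs (counted transcript molecules) per 1000000 UMIs, or CPM, in KO mice, against 67.2 and 65.9 in control mice, over all barcodes. The 5′ counts do not show which exons were deleted. Libraries held 57190926 and 60456627 UMIs in KO mice, against 89945864 and 91789597 in control mice. Cells were sorted into classes by clustering from which the 10 genes and 23 other granule genes had been left out, so the classes were not made by the values reported. Neutrophil-like cells numbered 547 and 260 in KO mice (5.24% and 2.34% of cells), against 1762 and 1390 in control mice (14.9% and 10.6%). Control mouse 2 stood apart: it gave 256 of the 329 immature neutrophils and 495 of the 716 dividing myeloid cells. Between pairs of libraries, 272 to 303 cell barcodes were shared. Every level below is given in CPM, over all UMIs of the named cells in that mouse.

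The 4 azurophil genes lie on 3 chromosomes of the mouse genome (GRCm39). Prtn3 (chr10:79710310-79719008) and Elane (chr10:79722081-79724051) are neighbours on the plus strand, 3073 bases apart with no coding gene between them. Mpo lies at chr11:87684407-87695239 on the plus strand and Ctsg at chr14:56337338-56340031 on the minus strand. Of the specific granule genes, Camp (chr9:109676442-109678685, minus strand), Ngp (chr9:110248815-110252086, plus) and Ltf (chr9:110848339-110871835, plus) lie in one stretch of chromosome 9, 570130 and 596253 bases apart, with 8 and 20 coding genes in the gaps. Lcn2 is at chr2:32274645-32278264 on the minus strand, Mmp8 at chr9:7558457-7568487 on the plus strand and Retnlg at chr16:48692547-48694862 on the plus strand.

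Promoter sequences of 5 members are shown because the early and late groups move apart below, and each has a known type of regulator. They are stretches upstream of the annotated start, read 5′ to 3′ on the strand of the gene, from RefSeq promoter windows placed on GRCm39 by exact match. Capitals mark matches, on either strand, to TTGCNNAA (a C/EBP-type motif) or to GAGGAA (an ETS-type motif, of the kind PU.1 binds). The stretches are Elane chr10:79721896-79722080, Ctsg chr14:56340032-56340281 (minus strand), Ltf chr9:110848110-110848338, Ngp chr9:110248626-110248814 and Mmp8 chr9:7558180-7558429.
Elane: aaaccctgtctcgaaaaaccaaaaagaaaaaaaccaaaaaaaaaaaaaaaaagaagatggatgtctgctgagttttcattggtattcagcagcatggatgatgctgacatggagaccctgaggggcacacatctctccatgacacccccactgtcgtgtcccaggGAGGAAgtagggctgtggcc
Ctsg: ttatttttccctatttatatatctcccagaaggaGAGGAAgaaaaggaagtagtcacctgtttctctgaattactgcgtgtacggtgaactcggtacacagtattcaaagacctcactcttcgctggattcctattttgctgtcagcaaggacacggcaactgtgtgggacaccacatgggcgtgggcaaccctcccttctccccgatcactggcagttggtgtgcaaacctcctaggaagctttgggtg
Ltf: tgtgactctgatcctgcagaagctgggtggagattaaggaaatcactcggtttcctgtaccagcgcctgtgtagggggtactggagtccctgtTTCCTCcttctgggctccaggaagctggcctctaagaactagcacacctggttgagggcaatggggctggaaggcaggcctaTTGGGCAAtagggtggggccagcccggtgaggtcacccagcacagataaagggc
Ngp: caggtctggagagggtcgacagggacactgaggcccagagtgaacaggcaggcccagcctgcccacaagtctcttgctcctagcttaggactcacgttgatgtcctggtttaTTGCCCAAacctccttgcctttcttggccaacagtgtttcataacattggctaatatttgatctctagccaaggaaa
Mmp8: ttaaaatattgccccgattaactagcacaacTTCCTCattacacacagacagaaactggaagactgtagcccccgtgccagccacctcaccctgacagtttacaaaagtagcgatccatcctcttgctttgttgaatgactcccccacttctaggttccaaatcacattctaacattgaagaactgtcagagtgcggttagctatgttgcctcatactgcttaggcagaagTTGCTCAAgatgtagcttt
In windows of 250 bases, TTGCNNAA was found in 0 of the 4 azurophil genes and in 5 of the other 6 (Ltf, Ngp, Lcn2, Mmp8 and Retnlg, not Camp), against 9.56% of 32851 promoter windows. GAGGAA was found in 4 of the 4 azurophil genes and in 3 of the other 6, against 23.3% of the windows. These counts use whole windows, not only bases upstream of the annotated gene start. The windows of Prtn3, Lcn2 and Retnlg lie wholly inside the annotated gene, and those of Mpo and Camp lie mostly inside it. The 2 motifs share no overlap in the sequences shown, and a match of letters says nothing of whether a factor bound there.

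Azurophil genes were found in dividing myeloid cells and hardly at all in neutrophils. A sub-cluster of 160 dividing cells was led by genes that include Ms4a3, a gene of granulocyte and monocyte progenitors in the mouse. Elane was at 415 and 2343 CPM there in KO mice, against 2479 and 582 in control mice, but KO mice gave only 1 and 2 such cells, against 12 and 145 in control mice. With so few cells in 3 of the mice, no genotype comparison of these levels was made. Over these cells of all mice Elane was at 793, Mpo at 301, Ctsg at 205 and Prtn3 at 1528 CPM.

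In the 329 neutrophils of the immature stage, no Mpo or Ctsg UMI was counted and Elane had 1 UMI, in control mouse 2. No cell of this stage had 2 or more UMIs of Elane, Mpo or Ctsg, and 317 had 2 or more of Ltf, Camp or Ngp. In the Ms4a3-led cells the order was the reverse, with 94 of 160 cells holding the azurophil genes at that count, 4 holding the specific genes and 2 holding both. A further 17 dividing cells had immature neutrophil markers (Cebpe, Gfi1, Ly6g), 14 of them from control mouse 2. The Ms4a3-led cells were not named as a neutrophil stage, and whether these groups follow one another was not tested. All 17 held the specific genes, and 3 of them also held Elane, Mpo or Ctsg. Over the 17 cells Elane was at 1527 CPM, above the Ms4a3-led cells, while Mpo was at 154, Ctsg at 57.3 and Prtn3 at 964. Those Elane UMIs came from 3 cells, 1 in control mouse 1 and 2 in control mouse 2. The 1 cell of control mouse 1 gave 258 of the 426 Elane UMIs. The 2 cells of that mouse were deep, with a median of 40318 UMIs of all genes, against 11569 over the 17. The level over the 17 cells thus rests mainly on 1 cell.

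The class of dividing myeloid cells was not built alike. A sub-cluster led by B cell genes such as Cd79a made up 33.9% and 28.8% of it in KO mice, against 6.98% and 1.41% in control mice. That led by Xcr1 and other dendritic genes made up 30.6% and 16.4%, against 5.81% and 0.606%. That led by Ccl17 and Ctla2a made up 27.4% and 46.6%, against 18.6% and 5.45%. Shares and averages of the class, here and below, thus compare unlike mixes of cells. By mouse, dividing myeloid cells (apart from the 17 immature ones) held 84.2% and 98.1% of all Elane UMIs in KO mice, against 63.5% and 84.6% in control mice. For Mpo they held 86.7% and 84.0% in KO mice, against 73.1% and 90.4% in control mice. In KO mouse 1 most Mpo UMIs, 70 of 83, and 74 of 95 Ctsg UMIs came from 2 cells each of the sub-cluster led by Ccl17 and Ctla2a.

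Prtn3 departed from its neighbour Elane. Monocyte-like cells held 52.9% and 26.9% of Prtn3 UMIs in KO mice, against 62.3% and 55.1% in control mice, while they held at most 7.89% of Elane UMIs in any mouse. The count of Prtn3 per Elane UMI in the Ms4a3-led cells was 0.571 and 1.68 in KO mice, against 0.941 and 2.40 in control mice. In the monocyte clusters with both Ly6c2 and Ccr2 among their markers (called Ly6C monocytes below) it was 51.7 and 51.1 in control mice, while KO mice had 133 and 143 Prtn3 UMIs over 3 and 4 Elane UMIs. Over the 4 mice, Prtn3 averaged 440.8 ± 372 CPM in dividing myeloid cells (the 17 included), 122.6 ± 104 in Ly6C monocytes, 44.6 ± 48.9 in macrophage-like cells, 19.1 ± 18.6 in inflammatory neutrophils (3 mice with 30 such cells) and 6.81 ± 5.85 in mature neutrophils (SD, n = 4 otherwise). These spreads overlap between each class and the next. B-like cells, which do not express the gene, averaged 0.217 ± 0.278.

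**Figure D1:**
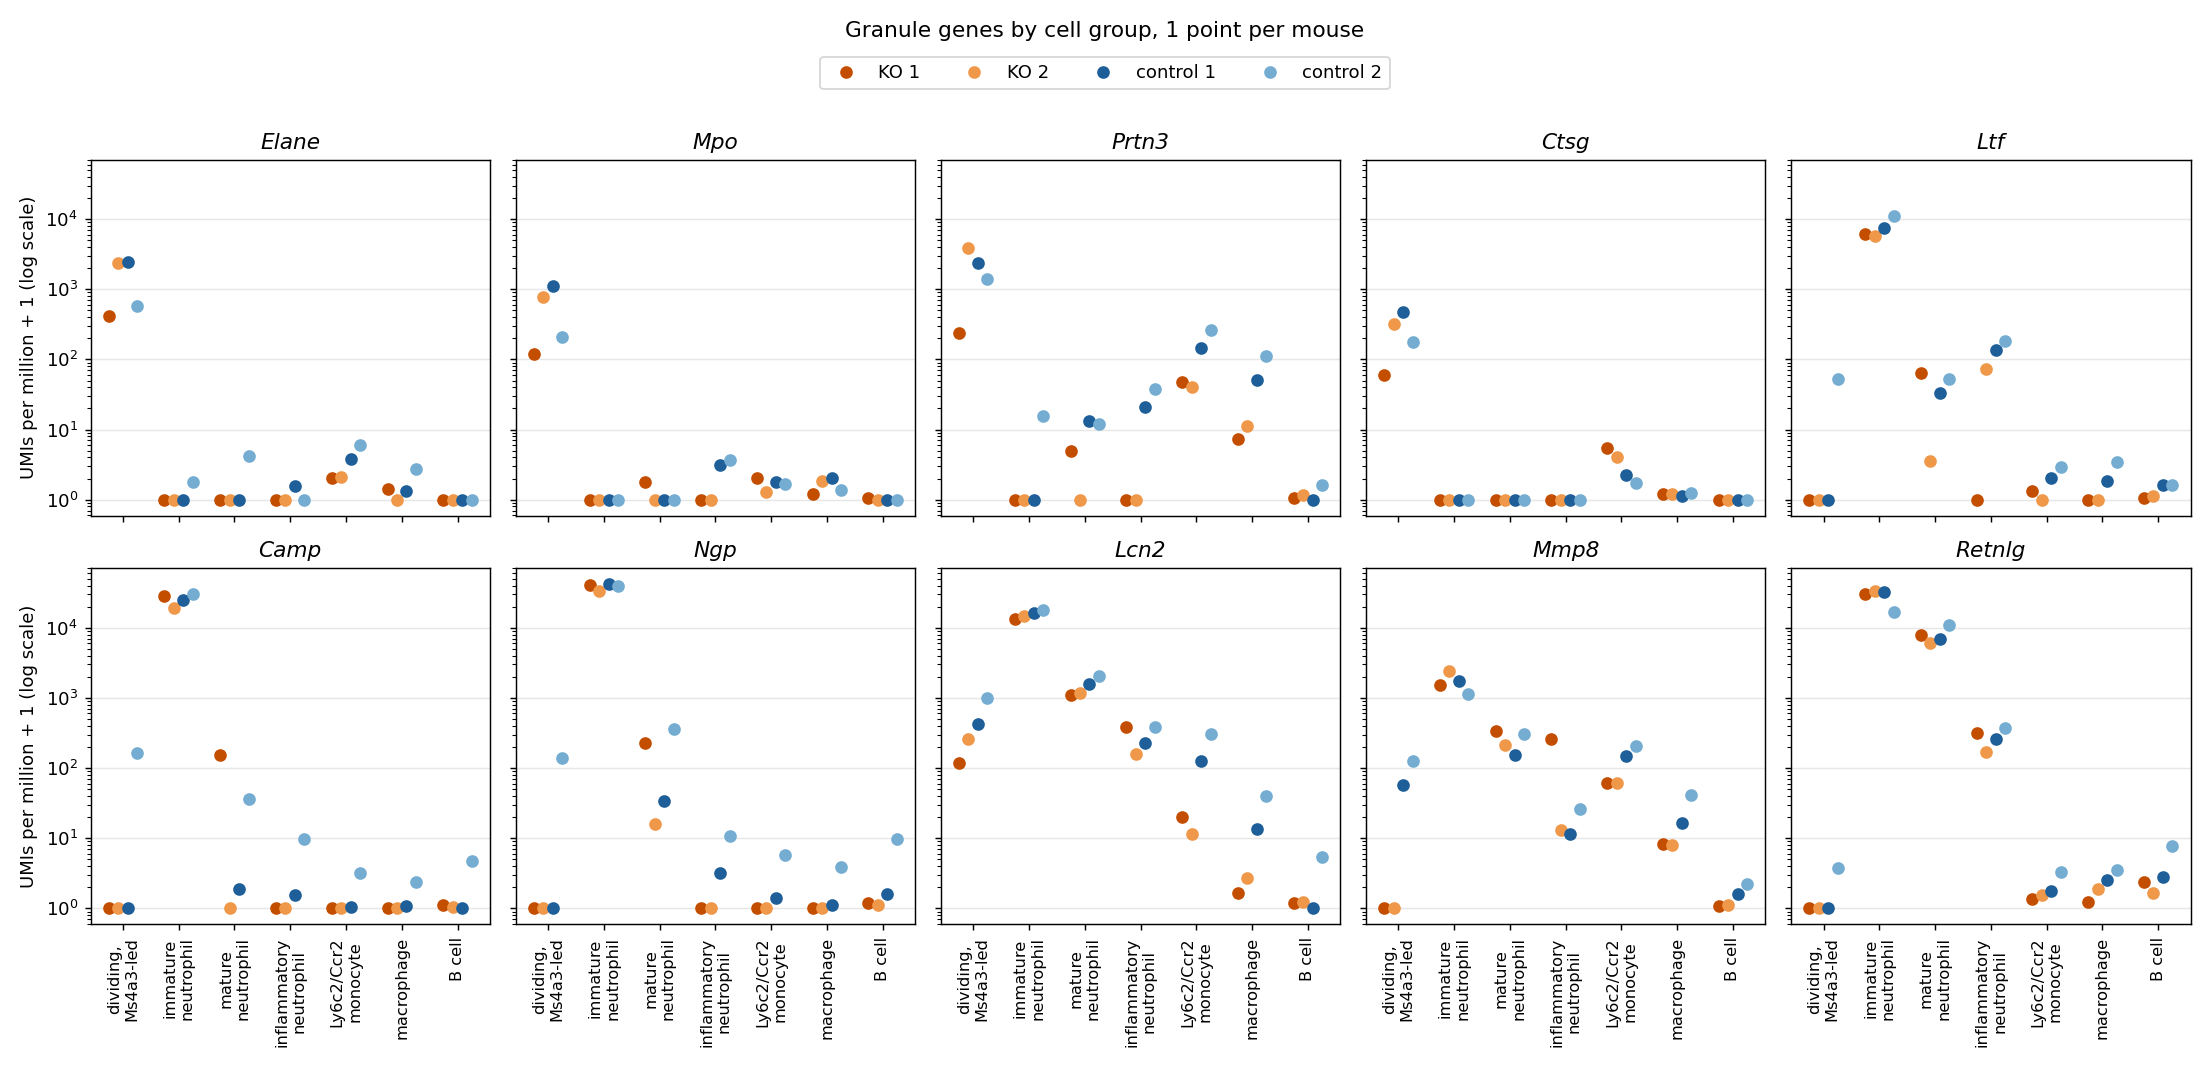
Level of each of the 10 genes (vertical axis, CPM plus 1, log scale) in Ms4a3-led dividing cells, 3 neutrophil stages, Ly6C monocytes, macrophage-like and B-like cells, 1 point per mouse. Elane, Mpo and Ctsg are high in dividing cells, Ltf, Camp and Ngp at the immature stage, and Retnlg and Lcn2 remain into the mature stage.

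The specific granule genes were high in immature neutrophils, a stage named from Cebpe, Itgb2l, Abca13, Ifitm6, Mgst1, Ly6g and related markers. Camp was at 28470 and 18956 CPM in KO mice, against 24591 and 30203 in control mice. Ngp was at 40530 and 33954 in KO mice, against 41568 and 39528 in control mice. Ltf was at 6155 and 5831 in KO mice, against 7469 and 11114 in control mice. Within this stage the groups overlapped for Camp and Ngp, and both KO mice were below both control mice for Ltf. The stage held 29 and 11 cells in KO mice, against 33 and 256 in control mice, fewer than the 30 per mouse set for a test, so none was made. The 17 dividing immature cells also held these genes, with Camp at 33479 CPM, Ngp at 46392, Ltf at 6494 and Lcn2 at 13282 over all mice. The 329 immature cells were at 29222 for Camp and 39646 for Ngp.

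Single cells of the stage were not alike. Per 10000 UMIs, Camp had a median of 259 over the 329 cells, a 10th percentile of 1.38 and a 90th of 541. Retnlg ranged as widely, with a 10th percentile of 12.0, a median of 145 and a 90th of 555. Lcn2 was more even, at 52.4, 144 and 258.

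Ltf, Camp and Ngp were then nearly gone in the mature stage, named from markers that include Cxcr2, Selplg, Stfa2l1 and Csf3r. Camp was at 154 and 0 CPM in KO mice, against 0.879 and 34.6 in control mice. In KO mouse 1 all 197 Camp UMIs came from 2 of its 479 mature cells. Ngp was at 228 and 15.2 in KO mice, against 32.5 and 361 in control mice. Neither gene separated the groups. Ltf was at 62.3 and 2.53 in KO mice, against 32.5 and 52.0 in control mice. In inflammatory neutrophils, named from Ccl3, Cxcl3, Il1a, Ptgs2 and Vegfa, Ltf was at 137 and 180 CPM in the control mice, above their mature cells, while Camp was at 0.544 and 8.83 there. KO mice gave 4 and 35 inflammatory cells with 0 and 6 Ltf UMIs.

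Lcn2 outlasted the other specific granule genes. It was at 13418 and 14632 CPM in immature cells of KO mice, against 16126 and 17660 in control mice. Mature cells still held 1103 and 1169 in KO mice, against 1597 and 2042 in control mice. The count of Lcn2 per Camp UMI in immature cells was 0.471 and 0.772 in KO mice, against 0.656 and 0.585 in control mice. In mature cells it was 7.18 in KO mouse 1, against 59.0 in control mouse 2, while KO mouse 2 and control mouse 1 had 0 and 1 Camp UMIs beside 462 and 1817 Lcn2 UMIs. The 7.18 rests on the 2 cells that held all 197 Camp UMIs of that mouse's mature stage, so the genotypes are not compared by this ratio. Over mice, Lcn2 averaged 1478 ± 436 in mature neutrophils, 532 ± 572 in dividing myeloid cells, 255 ± 116 in inflammatory neutrophils (n = 3), 115.1 ± 137 in Ly6C monocytes and 13.5 ± 18 in macrophage-like cells (SD, n = 4 otherwise). Mature neutrophils lay above inflammatory ones in every mouse with both, and the other neighbours overlap.

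The late genes took another course. Retnlg was at 2.39 CPM in the Ms4a3-led cells and at 283 in the 17 dividing immature cells, 8 of which held a UMI. In immature cells it was at 30756 and 33932 in KO mice, against 32211 and 16565 in control mice. In mature cells it was at 7886 and 5998 in KO mice, against 7000 and 10869 in control mice, and it was the one member with a median above 0 in single mature cells (20.9 per 10000 UMIs). Inflammatory cells of KO mouse 2 held 168 CPM, against 263 and 374 in the control mice. Each stage lay below the one before it in all mice that had 30 cells of both.

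Mmp8 was at 1544 and 2410 CPM in immature cells of KO mice, against 1716 and 1142 in control mice. Mature cells held 337 and 210 in KO mice, against 155 and 304 in control mice. In inflammatory cells Mmp8 was at 12.0 in KO mouse 2 (1 UMI), against 10.3 and 24.7 in control mice. It was not a gene of neutrophils alone: Ly6C monocytes averaged 117.6 ± 69.5 CPM (SD, n = 4), and monocyte-like cells held 16.2% and 38.5% of all Mmp8 UMIs in KO mice, against 74.1% and 64.9% in control mice.

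**Figure D2:**
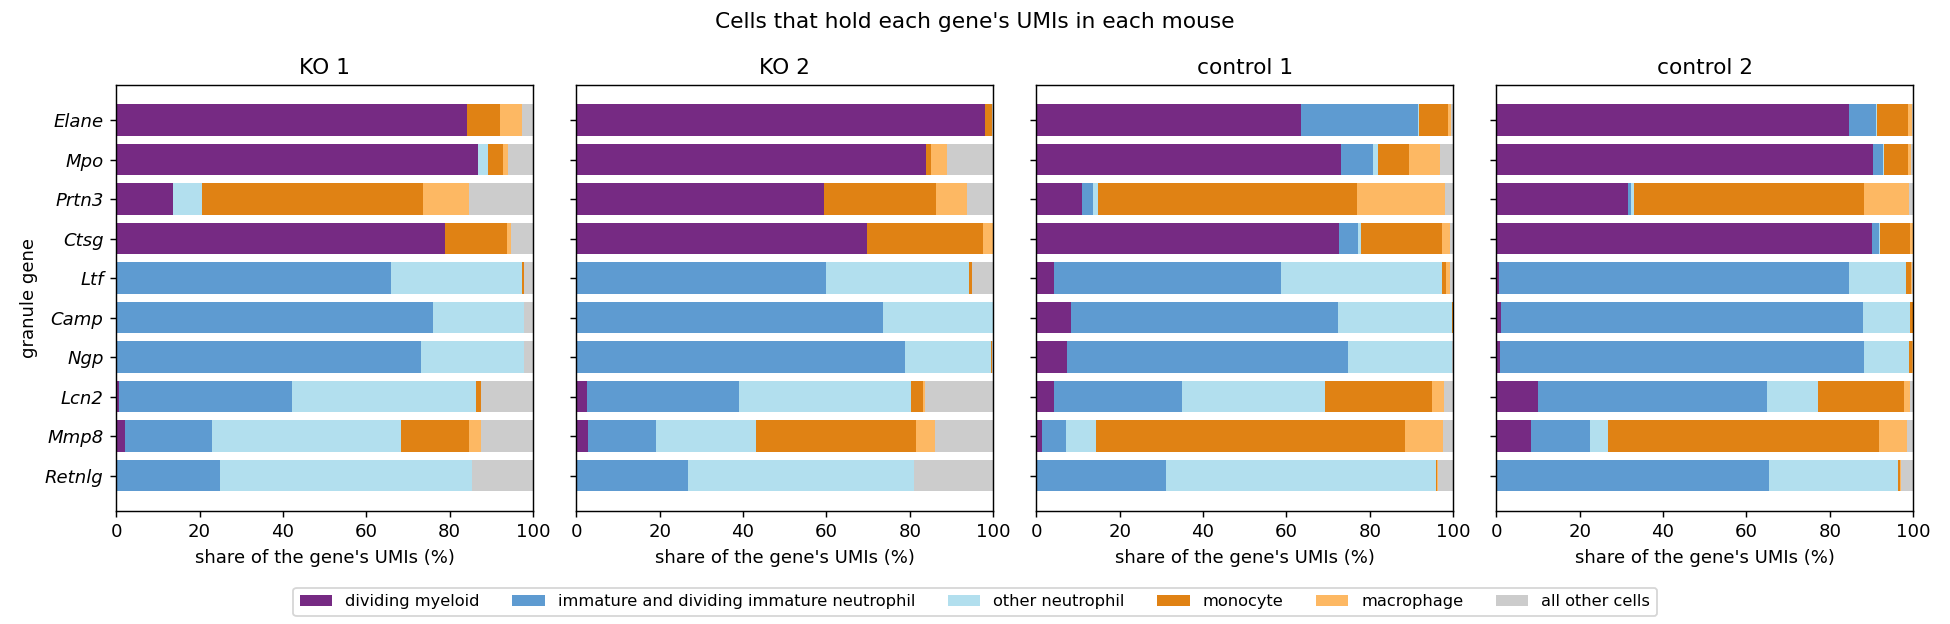
Share of each gene's UMIs (horizontal axis, percent) that came from each class of cells, 1 panel per mouse and 1 bar per gene. Dividing myeloid cells hold most Elane, Mpo and Ctsg, immature neutrophils are the largest source of Camp, Ltf and Ngp, and monocytes hold much of Prtn3 and Mmp8.

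The class difference was tested over all genes with the mouse as a block. Of 7 members that passed the filter on low counts, 7 differed between neutrophil-like and monocyte-like cells by edgeR's quasi-likelihood test with Benjamini-Hochberg adjustment, where 59.7% of 10013 genes did (29.2% higher and 30.5% lower in neutrophil-like cells). Camp (log2 12.70 ± 0.91 SE, adjusted p = 0.000123), Retnlg (12.61 ± 0.56, adjusted p = 8.28e-07), Ltf (10.25 ± 0.28) and Ngp (12.72 ± 0.92) were far higher in neutrophil-like cells. Lcn2 (6.86 ± 0.95, adjusted p = 0.00326) and Mmp8 (3.0 ± 0.59, adjusted p = 0.00781) were higher by less, and Mmp8 lost its call without control mouse 2 (3.24, adjusted p = 0.0595). Prtn3 was lower in neutrophil-like cells than in monocyte-like cells (log2 −1.81 ± 0.36, adjusted p = 0.00273). Elane, Mpo and Ctsg did not pass the filter. Camp and Ngp passed through their neutrophil-like counts and did not pass in monocyte-like cells alone. There KO mice held 0 and 0 Camp UMIs, and 0 and 1 Ngp UMIs. The calls of these genes were thus largely set by the filter, and the size of their folds is loosely held. For the same reason the count of 7 of 7 is not set against the share of all genes.

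The mix of stages differed between genotypes in these mice. Mature cells made up 87.6% and 75% of neutrophil-like cells in KO mice, against 39.9% and 28.1% in control mice. Inflammatory cells made up 0.731% and 13.5% in KO mice, against 53.5% and 49.1% in control mice. Both shares separated the groups, with an exact two-sided permutation p of 0.33, the smallest that 2 against 2 mice allow. Immature cells made up 5.30% and 4.23% in KO mice, against 1.87% and 18.4% in control mice, which overlap. Even the mature stage was not built alike, since 456 of 479 and 180 of 195 mature cells of KO mice fell in a sub-cluster led by Prok2 and Ciart, against 86 of 703 and 36 of 391 in control mice.

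**Figure D3:**
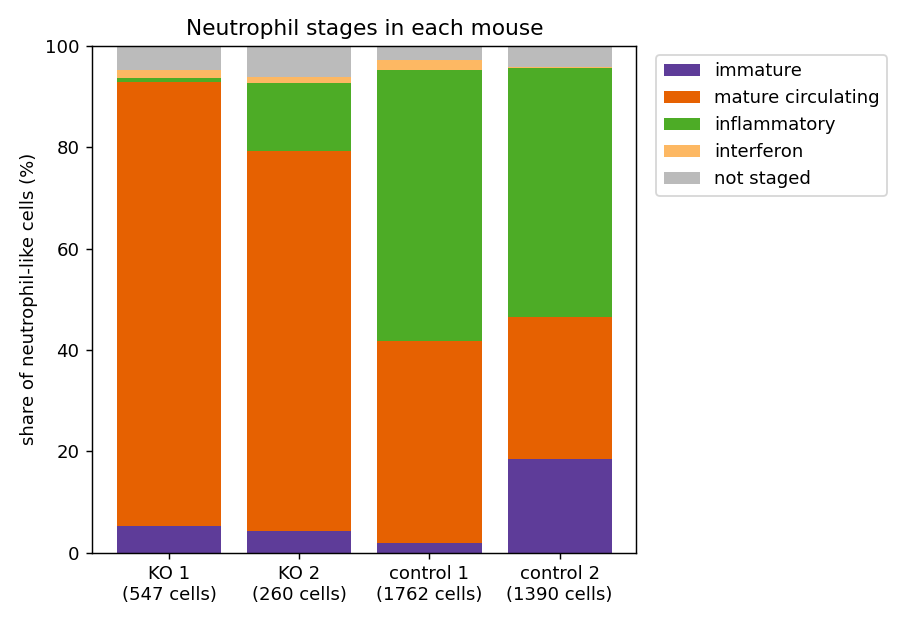
Share of neutrophil-like cells in each stage (vertical axis, percent of the mouse's neutrophil-like cells), 1 stacked bar per mouse, KO mice left of control mice. Mature shares are 87.6% and 75% in KO mice and 39.9% and 28.1% in control mice, inflammatory shares the other way round, and the highest immature share is that of control mouse 2.

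Over neutrophil-like cells of all stages, 7 of the 10 genes passed the filter on low counts, and edgeR called 0 of them at an adjusted p of 0.05, where 5.53% of 8359 genes were called, 3.19% higher and 2.33% lower (1806 genes had an unadjusted p under 0.05, 0 of them members). DESeq2's Wald test also called 0 members. Camp was at 3278 and 2241 CPM in KO mice, against 1576 and 12688 in control mice (log2 −1.30 ± 1.08 SE, adjusted p = 0.578). Ltf (−1.78 ± 1.08), Ngp (−1.15 ± 0.93) and Lcn2 (−0.95 ± 0.74) had the same layout, with control mouse 1 below both KO mice and control mouse 2 far above. Without control mouse 2 these 4 log2 values were 0.95, 0.48, 0.81 and 0.65, and Camp and Ngp were then called (adjusted p = 0.0184 and 0.0394), so the direction over the class rests on that mouse. Without control mouse 1 all 4 were called lower, at −2.11 for Camp, −2.59 for Ltf, −1.92 for Ngp and −1.66 for Lcn2.

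Retnlg was at 9373 and 7446 CPM in KO mice, against 4070 and 8896 in control mice (log2 0.46 ± 0.40, adjusted p = 0.564). Mmp8 was at 439 and 434 in KO mice, against 160 and 542 in control mice (0.38 ± 0.57, adjusted p = 0.764). Prtn3 was at 10.9 and 0 in KO mice, against 18.3 and 36.6 in control mice (−1.80 ± 0.78, adjusted p = 0.247). Of these Prtn3 UMIs, 14 of 19 in KO mouse 1 came from unstaged cells, against 14 of 65 and 62 of 130 in control mice, all of them from a sub-cluster of 126 cells led by genes that include Ccr2, Fn1 and F13a1, with 9 monocyte markers. Without the 148 unstaged cells, an alternative chosen after seeing the data, Prtn3 was called lower in KO mice (−2.81, adjusted p = 0.0381). Without the immature cells, an alternative chosen after seeing the data, Mmp8 (1.25, adjusted p = 0.0208) and Retnlg (0.95, adjusted p = 0.0339) were called higher in KO mice. The same was so without control mouse 2 (1.58, adjusted p = 7.16e-05 for Mmp8 and 1.18, adjusted p = 0.00152 for Retnlg), while Mmp8 was at −0.23 without control mouse 1.

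Within the mature stage, the only stage with 30 cells in every mouse, Lcn2 was lower in KO mice. Its 1103 and 1169 CPM in KO mice, against 1597 and 2042 in control mice, gave a log2 of −0.76 ± 0.20 (SE, adjusted p = 0.0183, edgeR). It was the 1 member called of 6 tested, where 10.9% of 5048 genes were called, 4.75% higher and 6.12% lower. With 6 genes tested, 1 call is not far from that share. With a mouse left out, Retnlg was called lower without control mouse 1 (−0.69, adjusted p = 1.24e-06), Mmp8 higher without control mouse 2 (0.77, adjusted p = 0.00695) and Ltf lower without KO mouse 1 (−4.03, adjusted p = 0.00073). Retnlg was at −0.44 ± 0.23 (adjusted p = 0.278), Mmp8 at 0.24 ± 0.32 (0.737), Ltf at −0.04 ± 1.02 and Ngp at −0.49 ± 1.93, none of them called. Lcn2 was at −0.26 (adjusted p = 0.701) in the Prok2-led sub-cluster alone, and at an adjusted p of 0.282 and 0.281 without KO mouse 1 or KO mouse 2. After cells were thinned to 1000 UMIs, 38.8% ± 3.41 of mature cells of KO mice held an Lcn2 UMI, against 47.7% ± 7.64 in control mice (SD, n = 2 each, exact permutation p = 0.33). Thinning left out 15 and 18 shallower mature cells of KO mice, against 100 and 52 of control mice. Without thinning the shares were 48.9% ± 0.242 in KO mice, against 49.1% ± 5.73 in control mice, and overlapped.

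**Figure D4:**
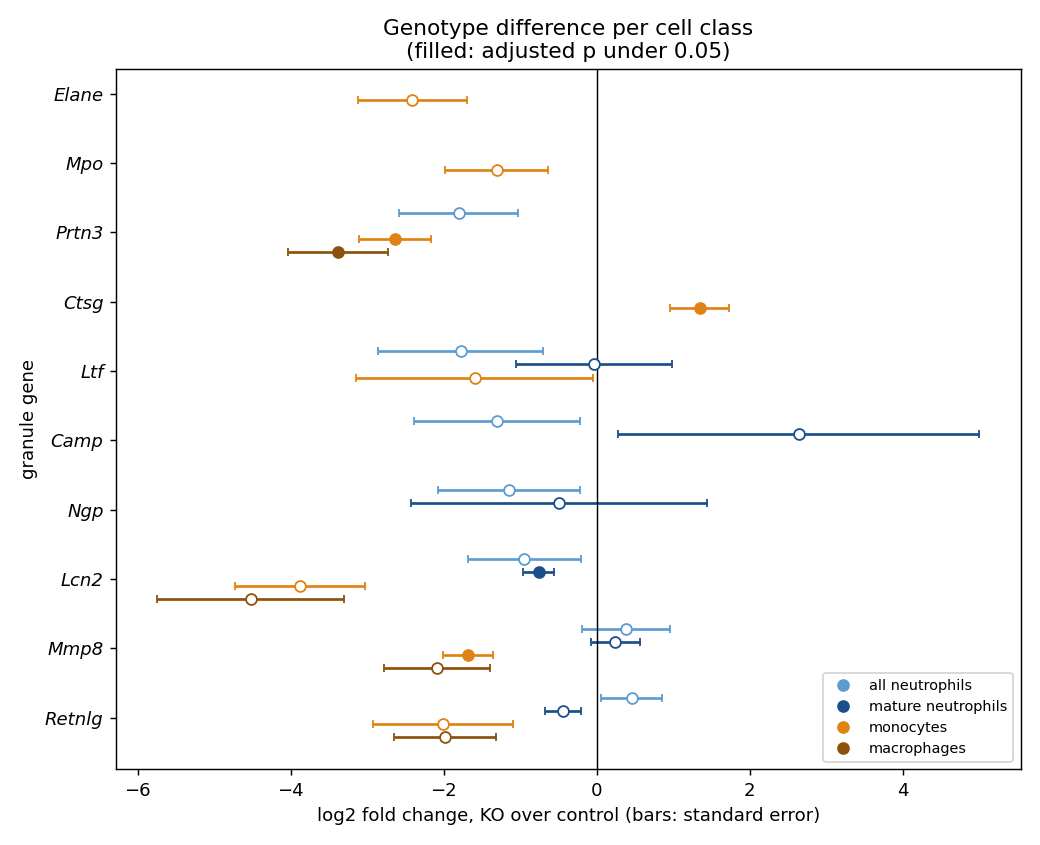
Log2 of KO over control for each tested member (horizontal axis) in neutrophil-like, mature neutrophil, monocyte-like and macrophage-like cells, with bars of 1 SE, filled where the adjusted p is under 0.05. The 5 filled points are Lcn2 in mature neutrophils (−0.76), Prtn3 (−2.64), Mmp8 (−1.68) and Ctsg (1.35) in monocyte-like cells and Prtn3 in macrophage-like cells (−3.38).

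In monocyte-like cells 2 members were called lower in KO mice and 1 higher. Prtn3 was at 27.5 and 26.6 CPM in KO mice, against 99.6 and 210 in control mice (log2 −2.64 ± 0.47 SE, adjusted p = 0.0364). Mmp8 was at 36.0 and 42.0 in KO mice, against 84.5 and 146 in control mice (−1.68 ± 0.32, adjusted p = 0.0279). Both KO mice lay below both control mice for each gene. Ctsg went the other way at a very low level, 2.68 and 1.89 in KO mice, against 0.784 and 0.846 in control mice (1.35 ± 0.39, adjusted p = 0.0436). These 3 were called of 8 members that passed the filter, where 20.5% of 12991 genes were called, 9.96% higher and 10.6% lower.

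Lcn2 had the widest gap in monocyte-like cells but missed the threshold: 11.7 and 9.27 CPM in KO mice, against 70.3 and 210 in control mice (−3.88 ± 0.85, adjusted p = 0.0819). DESeq2 called it (adjusted p = 6.6e-06), and so did edgeR without control mouse 1 or 2 (−4.45 and −2.82). Elane was at 0.574 and 0.629 in KO mice, against 1.67 and 4.23 in control mice (−2.41 ± 0.71, adjusted p = 0.0525). Prtn3 was not called without KO mouse 1 or 2 (adjusted p = 0.209 and 0.163), nor was Mmp8 (0.183 and 0.118), and Ctsg lost its call with each mouse left out in turn.

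The class was built differently in the 2 genotypes. A cluster with Ace, Treml4 and Spn, markers of patrolling monocytes, made up 43.2% and 26.6% of monocyte-like cells in KO mice, against 6.0% and 3.24% in control mice. It held little of the members, with Prtn3 at 3.33 and 3.01 CPM in KO mice, against 19.6 and 21.2 in control mice. The comparison was therefore repeated in Ly6C monocytes alone, 346 and 498 cells in KO mice, against 2100 and 3975 in control mice, an alternative chosen after seeing the data. The mix of the 2 clusters in this set differed too. The cluster led by Arhgef37 and F13a1 gave 249 and 337 of these cells in KO mice, against 893 and 1872 in control mice. The part of this mix in the results was not tested.

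In Ly6C monocytes, whose mix of clusters still differed, the levels of Mmp8, Prtn3 and Lcn2 remained lower in KO mice. Mmp8 was at 60.4 and 60.9 CPM in KO mice, against 147 and 202 in control mice (log2 −1.55 ± 0.17 SE, adjusted p = 0.000348), and it stayed called with each mouse left out in turn (−1.76 to −1.28). Prtn3 was at 45.9 and 39.0 in KO mice, against 144 and 262 in control mice (−2.28 ± 0.41, adjusted p = 0.0513). Lcn2 was at 19.3 and 10.4 in KO mice, against 127 and 304 in control mice (−3.91 ± 0.84, adjusted p = 0.118). Both KO mice were below both control mice for all 3 genes, of which the test called Mmp8 only. Ctsg (1.92 ± 0.47, adjusted p = 0.0156) was called higher, on 13 and 11 UMIs in KO mice, against 21 and 21 in control mice, and lost its call without KO mouse 1, KO mouse 2 or control mouse 2 (adjusted p = 0.181, 0.0759 and 0.118). Elane (−1.93 ± 0.56, adjusted p = 0.0319) was called lower, on 3 and 4 UMIs in KO mice, against 47 and 146 in control mice. This Elane call did not hold with every mouse left out in turn. Few of these monocytes, 33 of 6919 over all mice, held 2 or more UMIs of Elane, Mpo or Ctsg. Ltf was called too (adjusted p = 0.0498) on 1 UMI in KO mice, against 74 in control mice, a ratio of 0.0936 with a counting interval of 0.00234 to 0.538. In all, 4 of 6 tested members were called there, against 18.5% of 11387 genes, 9.19% higher and 9.27% lower.

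Shares of cells gave the same order at equal depth. Thinned to 1000 UMIs, 2.47% ± 0.226 of Ly6C monocytes of KO mice held a Prtn3 UMI, against 16.3% ± 7.15 in control mice. Lcn2 was in 1.62% ± 0.572 of KO cells, against 13.5% ± 4.72 of control cells, and Mmp8 in 5.74% ± 0.759, against 14.2% ± 3.44 (SD, n = 2 each, exact permutation p = 0.33 for each). Thinning left out 0 and 4 shallower cells of KO mice, against 8 and 11 of control mice. B-like cells, which lack these genes, held a UMI of them in 0% to 0.496% of cells. Without thinning, 22.4% ± 3.52 of KO cells held Prtn3, against 59.8% ± 10.6 of control cells. For Lcn2 these were 4.77% ± 0.208 of KO cells, against 37.2% ± 10.2 of control cells, and for Mmp8 29.8% ± 3.58, against 55.1% ± 3.82.

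Neutrophil markers in Ly6C monocytes (12 genes summed) stood at 538 and 512 CPM in KO mice, against 665 and 1593 in control mice, with Ly6g at 0 except in control mouse 2. Progenitor markers stood at 35.9 and 30.3 in KO mice, against 8.05 and 9.47 in control mice. Their part in the results was not tested. Camp in the same cells had 0 UMIs in each KO mouse, against 1 and 62 in control mice. Camp, Ngp and Retnlg reached at most 2.17, 4.84 and 2.28 CPM there, below the 3.71, 8.66 and 6.80 in B-like cells of control mouse 2. Ltf reached 1.96, below the 4.27 in T-like cells, but B-like cells of control mouse 2 held only 1 Ltf UMI. Camp, Ngp and Retnlg are read as background. For Ltf the reading depends on which cells serve as reference, so its call is taken no further. Elane and Ctsg had no UMI in B-like cells of any mouse.

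**Figure D5:**
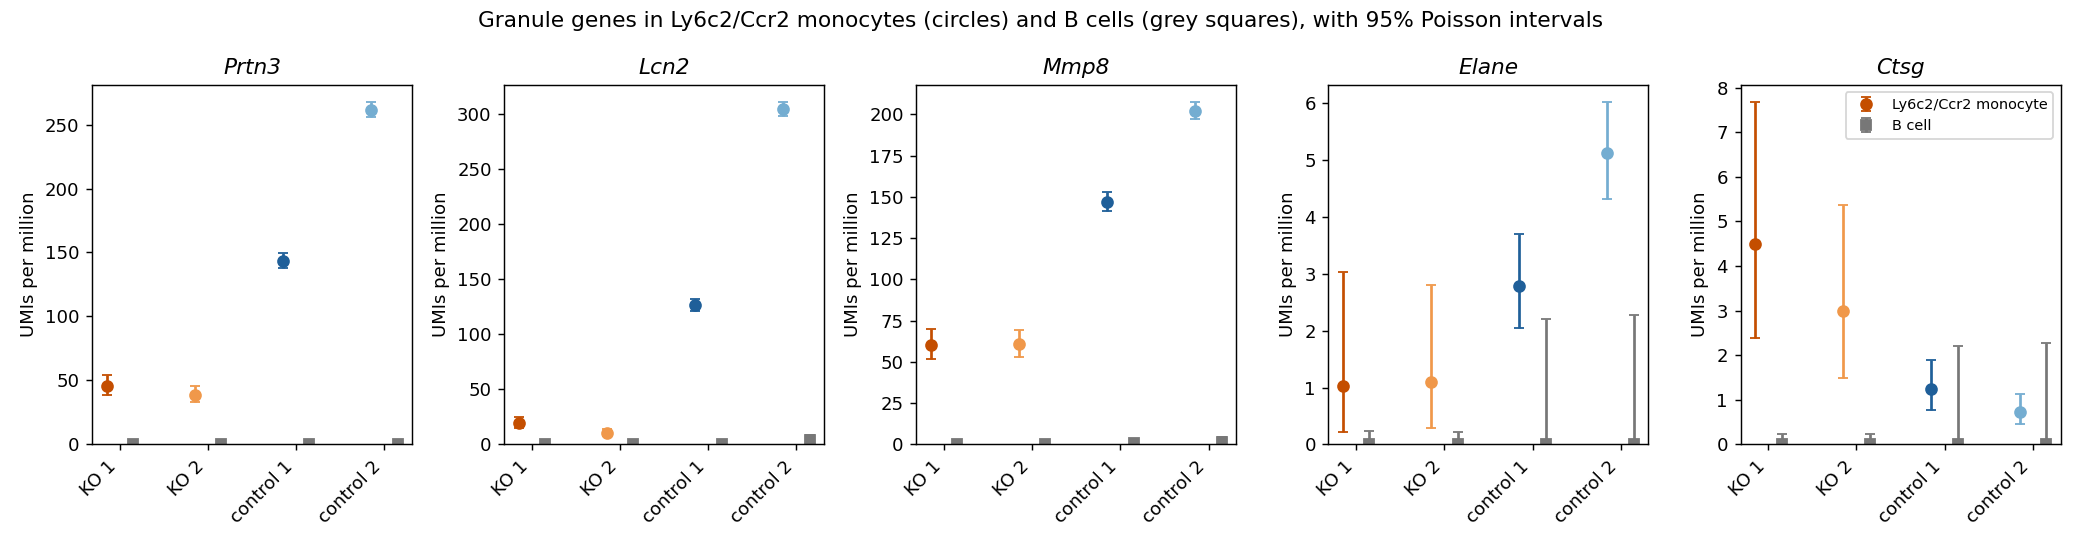
Levels of Prtn3, Lcn2, Mmp8, Elane and Ctsg (vertical axis, CPM) in Ly6C monocytes (circles) and B-like cells (grey squares), 1 point per mouse, KO left of control, with 95% Poisson intervals that cover counting error only. Both KO mice lie below both control mice for Prtn3, Lcn2, Mmp8 and Elane, and above them for Ctsg.

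Macrophage-like cells repeated the order for Prtn3. It was at 6.46 and 10.2 CPM in KO mice, against 50.1 and 112 in control mice (log2 −3.38 ± 0.65 SE, adjusted p = 0.0494, edgeR). Prtn3 was the 1 member called of 4 tested, where 23.5% of 12158 genes were called, 11.4% higher and 12.1% lower. That count is near the share of all genes, so it says nothing particular about the members. Lcn2 was at 0.646 and 1.73 in KO mice, against 12.3 and 39.3 in control mice (−4.52 ± 1.22, adjusted p = 0.104). Mmp8 was at 7.32 and 6.91 in KO mice, against 15.7 and 40.9 in control mice (−2.08 ± 0.69, adjusted p = 0.132). Here too the mix differed, with 86.3% and 83.4% of KO cells in one of its 2 clusters, against 31.0% and 22.1% of control cells. Prtn3 was lower in both KO mice within each: 6.98 and 8.80 in KO mice, against 21.9 and 90.9 in control mice, in that cluster, and 3.15 and 16 in KO mice, against 63.3 and 117 in control mice, in the other. The call was lost in 9 of the 14 other settings, at −3.85 to −3.09 with an adjusted p of 0.0511 to 0.239. B cell markers were at 894 and 1078 CPM in macrophage-like cells of KO mice, against 91.0 and 53.5 in control mice, and their part was not tested.

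The genotype effect was then compared between neutrophil-like and monocyte-like cells in one model. It differed for Lcn2 (log2 difference 3.13 ± 0.29 SE, adjusted p = 4.2e-07), Mmp8 (2.27 ± 0.33, adjusted p = 0.00052) and Retnlg (2.33 ± 0.44, adjusted p = 0.00235), each higher in neutrophil-like cells relative to monocyte-like cells in KO mice. These were 3 of 7 tested members, where 4.64% of 11027 genes were called, 2.69% higher and 1.95% lower. Prtn3 did not pass (0.81 ± 0.68, adjusted p = 0.637), nor did Ltf (−0.14 ± 0.47, adjusted p = 0.928). Retnlg in monocyte-like cells was at the level of background, which limits what its term says. Lcn2 stayed called with each mouse left out in turn (2.80 to 3.51), while Mmp8 lost its call without KO mouse 1 (adjusted p = 0.0662) and Retnlg without KO mouse 1, KO mouse 2 or control mouse 2 (0.0934, 0.0526 and 0.0542).

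Other granule, vesicle and oxidase proteins were followed as a list of 23 genes. In mature neutrophils 7 of 18 tested were lower in KO mice and 0 higher (median log2 −0.50, against −0.01 over all genes tested), where 6.12% of all genes were lower and 4.75% higher. Mmp25, a membrane-anchored protease, was at 9.35 and 10.1 CPM in KO mice, against 65.1 and 81.9 in control mice (−2.97 ± 0.37, adjusted p = 3.47e-05). Cd177, a surface protein that presents proteinase 3 in human neutrophils, was at 10.9 and 22.8 in KO mice, against 58.9 and 120 in control mice (−2.65 ± 0.43, adjusted p = 0.000753). Hp (haptoglobin, −1.60, adjusted p = 8.72e-05) and Slpi (an inhibitor of elastase and cathepsin G, −1.20, adjusted p = 0.00253) also fell. Over all neutrophil-like cells 2 of 22 tested were lower and 0 higher (2.33% and 3.19% of all genes), again Mmp25 (−2.40, adjusted p = 0.00813) and Cd177 (−2.46, adjusted p = 0.0183). Mature cells of KO mice came mostly from another sub-cluster than those of control mice, and these genes took no part in making either. In the Prok2-led sub-cluster alone 1 of 15 was lower and 0 higher, and without KO mouse 2 the count was 4 lower of 20. Over all neutrophil-like cells, 12 of 22 were lower and 1 higher without control mouse 1, and 3 lower and 6 higher without control mouse 2.

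In monocyte-like cells 6 of 19 tested genes of this list were lower in KO mice and 2 higher (median −0.32, against 0.01), where 10.6% of all genes were lower and 9.96% higher, so the higher count is near the share of all genes. Pglyrp1, a peptidoglycan recognition protein of specific granules, rose, at 246 and 152 CPM in KO mice, against 30.6 and 26.9 in control mice (2.67 ± 0.21, adjusted p = 0.00095). Ctsc, the protease that activates elastase, cathepsin G and proteinase 3, was at 641 and 751 in KO mice, against 1138 and 1301 in control mice (−0.92 ± 0.15, adjusted p = 0.00689). Slpi (−1.34), Adam8 (−0.93) and Itgam (−0.72) fell as well, and Anxa1, annexin A1, rose by 0.42 (adjusted p = 0.0376). The mix of clusters given above applies to these counts too. In Ly6C monocytes alone 5 of 17 were lower and 5 higher (9.27% and 9.19% of all genes). Without KO mouse 1, 0 of 21 were lower and 1 higher, and without KO mouse 2, 1 was lower and 1 higher. In macrophage-like cells 5 of 18 were lower and 2 higher (12.1% and 11.4% of all genes, median −0.48, against 0.02), with Adam8 at −2.33 ± 0.14 (adjusted p = 2.53e-05) and Pglyrp1 at 1.82 ± 0.20 (adjusted p = 0.000447). Itgam (−1.39), Cyba (−0.81) and Ctsc (−0.59) fell there too, and Mmp25 rose by 1.01 (adjusted p = 0.0452).

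Among 12 transcription factors of granulocyte development, Cebpe, which encodes C/EBPε, was lower in KO monocyte-like cells (2.68 and 2.36 CPM in KO mice, against 6.51 and 6.70 in control mice, log2 −1.51 ± 0.24, adjusted p = 0.00611). It was lower in macrophage-like cells as well, at 0.215 and 0.432 in KO mice, against 6.53 and 5.25 in control mice (−4.25 ± 0.49, adjusted p = 0.000614). Those KO cells held 4647572 and 4628552 UMIs of all genes, so these 2 levels rest on very few Cebpe UMIs. The size of the fold is thus loosely held, and the mix of macrophage clusters given above applies here too. In neutrophil-like cells the 1 factor called of 10 tested (5.53% of all genes were called) was Gfi1, a repressor needed for neutrophil formation, at 9.16 and 7.80 in KO mice, against 1.97 and 0.563 in control mice (2.84 ± 0.69, adjusted p = 0.0429). With 1746904 and 641280 UMIs of all genes in KO mice, against 3549580 and 3554959 in control mice, this call rests on few Gfi1 UMIs. No factor was called there by DESeq2 or without KO mouse 1 or control mouse 2. In mature neutrophils 0 of 6 tested factors were called. Monocyte-like cells had 1 of 9 higher (Cebpd, 0.39) and 1 lower, and macrophage-like cells 0 of 10 higher and 2 lower (Cebpe and Runx1, −0.57). Of all genes, 9.96% were higher and 10.6% lower in monocyte-like cells, and 11.4% and 12.1% in macrophage-like cells, so 1 of 9 each way is near the share of all genes. With either KO mouse left out, 0 factors were called in monocyte-like cells. The medians over the tested factors were −0.13 in neutrophil-like, −0.08 in mature, −0.20 in monocyte-like and 0.08 in macrophage-like cells, against −0.06, −0.01, 0.01 and 0.02 over all genes tested.

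Of 16 inhibitors, receptors and targets of granule proteins, neutrophil-like cells had 0 of 8 tested called (median log2 −1.07, against −0.06 over all genes tested) and mature neutrophils 0 of 5 (median −2.22, against −0.01). Monocyte-like cells had 3 of 10 lower and 1 higher (10.6% and 9.96% of all genes, median 0.07, against 0.01), and 0 of 12 were called without KO mouse 1. Lrp1, a clearance receptor for protease complexes, was at −1.06 ± 0.15 (adjusted p = 0.0037), and Timp1, an inhibitor of collagenases, was at 0.383 and 0.629 CPM in KO mice, against 4.58 and 3.28 in control mice (−3.02 ± 0.45, adjusted p = 0.00453). Csf3, the cytokine that drives neutrophil production, had 0 UMIs in monocyte-like cells of KO mice, against 76 in control mice, which is at least 3.48-fold lower by a floor of 3 counts over the group, and the median of the list is the same with Csf3 at that bound. Tfrc, the transferrin receptor, was higher (0.97, adjusted p = 0.0245). In macrophage-like cells 1 of 9 was higher (Serpinb1a, an inhibitor of neutrophil serine proteases, 1.95 ± 0.37, adjusted p = 0.0121) and 1 lower (Lrp1, −0.94), near the 11.4% and 12.1% of all genes, with a median of 0.05, against 0.02. With either KO mouse left out, 0 of 10 were higher and 1 lower.

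Genes whose levels followed each group most closely were found over 13 profiles (classes and stages, means over mice) among 8528 genes. For the summed azurophil members they were Dock1, Nrg1 and Map3k20 (Pearson r of 0.89 each). For the specific members they were Wfdc21 (0.98), Cebpe (0.97) and S100a8 (0.95). For the late members they were Padi4 (0.98), 9830107B12Rik (0.97) and Slc27a4 (0.96). The profiles share mice and libraries, and the values are a description.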

How the data were processed

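Live CD45+ cells of 4 mice were profiled as 10x 5′ gene expression libraries. The deposited files hold raw UMI counts of each gene in each barcode. They were made with Cell Ranger 8.0.1 against GRCm39, per the submitters' processing notes, which also list Seurat 5.0.1 and R 4.4.1. The T cell receptor files served only for their barcodes in one alternative, and 0 sample columns were left unused. Labels call the samples biological replicates, taken here as 1 mouse each, and p-values measure the spread between these samples.

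Barcodes under 200 genes or over 10% mitochondrial UMIs were dropped, and doublets called with Scrublet (0.8% per 1000 cells) were removed. Median depth was 3739 and 3726 UMIs per barcode in KO mice, against 6639 and 6226 in control mice, with levels scaled to 1000000 UMIs (CPM). Cells were clustered in scanpy 1.11.5 (2000 variable genes, 30 components, 20 neighbours, Leiden resolution 1), and neutrophil and dividing myeloid cells again (20 components, resolution 0.5). Members and the other granule genes were left out. A name needed 3 markers at a fold of 2 in 10% of cells, and clusters with over 25% doublets stayed unnamed.

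UMIs were summed per mouse and class, and tested with edgeR 4.0.16 in R 4.3.3 (quasi-likelihood, robust, TMM, filterByExpr), with Benjamini-Hochberg adjustment over all genes and a threshold of 0.05. A stage was tested only with 30 cells in every mouse. Intervals are 95% and exact, and cover counting error only. In simulated data with 200 changed genes, the test recovered 24% of 2-fold and 77% of 4-fold changes in neutrophil-like cells, 50% and 82% in monocyte-like cells, 59% and 92% in macrophage-like cells and 42% and 87% in mature neutrophils, with 14, 9, 24 and 5 false calls in these 4 comparisons.

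Alternatives were other scaling, no filter, DESeq2 1.42.0, other cell filters, clustering and thinning, a replicate block and each mouse left out. Named genes are all members, and of the other lists the called genes, at most 4 per direction by p. For likeness, the 3 genes with the highest correlation of log2(CPM + 1) were named, among genes at 20 CPM or more in a profile. Members and lists were chosen with earlier results of these data known.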

Additional observations from a re-analysis of the deposited data

Results flagged for a closer look

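The genotype effect (KO over control) differed between neutrophil-like and monocyte-like cells for 3 genes by the class-by-genotype term of edgeR's quasi-likelihood test. The log2 difference was 3.13 for Lcn2, 2.27 for Mmp8 and 2.33 for Retnlg. Lcn2 was at −0.95 in neutrophil-like and −3.88 in monocyte-like cells, Mmp8 at 0.38 and −1.68, and Retnlg at 0.46 and −2.01. The neutrophil-like values include the immature cells, most of which came from control mouse 2. Retnlg in monocyte-like cells was at the level of background, with 5 and 3 UMIs in KO mice, against 44 and 183 in control mice. Its −2.01 is therefore not read as a change in monocytes, which limits what its term says. The calls of Mmp8 and Retnlg did not hold with every mouse left out, as given above, while that of Lcn2 did.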

How the results depend on the processing

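Of single values under other settings (log2 levels, and shares of cells or stages), 430 kept direction and side of the threshold, 48 gained and 35 lost a call, 23 reversed, and 72 shares moved by more than the spread between mice. Members called in neutrophil-like cells (0) were 1 with no filter, at resolution 0.5, with the doublet-rich cluster or without unstaged cells, 2 without immature cells, 3 with granule genes kept in clustering, and 0 to 4 with a mouse left out. In monocyte-like cells (3) they were 0 to 8 with a mouse left out, and in Ly6C monocytes 1 to 6. In macrophage-like cells (1) they were 0 with DESeq2 size factors, doublets kept, the stricter cell filter, receptor barcodes left out or granule genes kept, 3 with no filter or DESeq2, and 0 to 5 with a mouse left out. In mature cells (1) they were 0 in the Prok2-led sub-cluster and 0 to 2 with a mouse left out. For the class-by-genotype term (3) they were 1 to 5. With the replicate number as a block, 4 members were called in macrophage-like cells, and in monocyte-like cells Elane was called (adjusted p = 0.0157) and Ctsg was not (0.0641). Same-numbered mice did not deviate together (correlations −0.068, −0.080, −0.062 and −0.0041 in neutrophil-like, monocyte-like, macrophage-like and mature cells). At sub-cluster resolution 1 the share differences were 34.1 points for mature, 5.29 for interferon and 11.4 for unstaged cells, in place of 47.3, 0.298 and 2.01.

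With a mouse left out, log2 values that reversed in neutrophil-like cells were −2.59 to 0.48 for Ltf, −2.11 to 0.95 for Camp, −1.92 to 0.81 for Ngp and −1.66 to 0.65 for Lcn2 (above 0 without control mouse 2), and −0.23 (without control mouse 1) to 1.58 for Mmp8. At resolution 0.5 Mmp8 was at −0.14 and Retnlg at −0.064, and with the doublet-rich cluster they were at −0.11 and −0.027. In monocyte-like cells Ltf was at −2.69 to 0.51 (above 0 without control mouse 2), and Mpo at 0.48 in Ly6C monocytes without KO mouse 2. In mature cells Ltf was at −4.03 to 0.56 and Ngp at −3.72 to 2.06 (both above 0 without KO mouse 2 or control mouse 2), Mmp8 at −0.21 to 0.77 (below 0 without KO mouse 1 or control mouse 1) and Camp at −6.53 to 6.51, the lower end without KO mouse 1, where KO mouse 2 had no Camp UMI and the value is no bound. Ltf there was at 0.029 with library totals, and Retnlg at 0.046 in the Prok2-led sub-cluster. The class-by-genotype term was −0.60 to 0.73 for Ltf and −9.55 to 1.48 for Prtn3, the lower end without KO mouse 1, where KO mouse 2 had no Prtn3 UMI. Apart from these UMIs at 0, the cause was not tested.

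Library totals in place of TMM moved the median of all genes to −0.17 against −0.06 (log2) in neutrophil-like, 0.13 against 0.01 in monocyte-like and 0.12 against 0.02 in macrophage-like cells, to −0.31 against −0.09 for the class-by-genotype term, and to −0.62 against −0.07 for neutrophil-like over monocyte-like cells. Genes called higher and lower were then, in that order of comparisons, 173 and 213 in place of 267 and 195, 1652 and 945 in place of 1294 and 1373, 1771 and 1118 in place of 1384 and 1469, 196 and 323 in place of 297 and 215, and 1731 and 4857 in place of 2928 and 3050. Over all settings, genes called higher and lower ranged over 45 to 766 and 35 to 544 in neutrophil-like, 161 to 1752 and 134 to 2426 in monocyte-like, 501 to 1771 and 464 to 2253 in macrophage-like and 25 to 500 and 115 to 472 in mature cells. With 2 mice per group, no permutation over mice can go below 0.33, and the few neutrophils of KO mice limit what their stages can show.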
